A study of Mus musculus with 2 samples.

Results

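The mitosis and G2/M genes are 32 protein-coding genes whose transcripts build up in the last stages of the cell cycle. They form a fixed list of symbols that was chosen with earlier results of these data known. The backgrounds over all genes given below are therefore for scale and are no test of the list. All 32 were found among the 32285 genes listed for each library, and none was left out below. Their products condense and untangle chromosomes (Top2a, Hmgb2, Mki67), drive entry into mitosis (Cdk1 and its cyclins), attach chromosomes to the spindle (Cenpe, Cenpf, Spc25) and split the cell (Prc1, Kif23, Aurkb). The genes lie on 14 chromosomes, with 8 on chromosome 2. They were followed in CD8 T cells, regulatory T cells, macrophages and tumour-like cells of MC38 tumours.

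MC38 is a mouse colon adenocarcinoma line. The tumours grew for 14 days in untreated wild-type mice (WT) or mice of the genotype given as Ifnar1-SA, named for a subunit of the type I interferon receptor, and each genotype gave 1 droplet-based single-cell library. The labels name the cells both as immune cells and as CD8 T cells, while strain, age, sex, the number of animals pooled and any sort were not given in the sources used here. Cells were sequenced with the 10x method, in which each captured transcript carries a unique molecular identifier (UMI). With 1 library per genotype there was no spread between replicates to test against, so differences are given without p-values and describe this pair of libraries. All intervals are 95% intervals for counting error only.

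In dividing cells, Cdk1 bound to cyclin B starts mitosis, the spindle checkpoint holds chromosomes until each is attached, and the anaphase-promoting complex with Cdc20 then marks cyclin B for destruction so that the cell can divide. Most of these genes are kept silent in resting cells by the DREAM complex, and are switched on in G2 by the MuvB core with B-Myb and FoxM1. MuvB binds a short element near the start site, the cell cycle genes homology region (CHR), and the factor NF-Y binds CCAAT boxes upstream of it. In tumours these transcripts are read as a sign of dividing cells, including T cells that expand after meeting antigen.

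The promoters of the genes show both elements. RefSeq promoter windows (GRCm38.p6, 250 bases before to 50 after the start site) were matched for 27 of the 32 genes, giving 28 windows because Prc1 had an extra start. Ccna2, Esco2, Tpx2, Kif20a and Aurkb were not matched. The printed stretches run from 120 bases before the start to 30 after it, with the matches to CHR (TTTGAA or TTCGAA, either strand) and CCAAT (either strand) in capitals. Ccnb2, Cdk1, Ube2c, Cdc20, Hmmr, Top2a and Kif11 are shown because each has both elements, and Ccnb1 because it has CCAAT boxes and no CHR match in its window.
Ccnb2: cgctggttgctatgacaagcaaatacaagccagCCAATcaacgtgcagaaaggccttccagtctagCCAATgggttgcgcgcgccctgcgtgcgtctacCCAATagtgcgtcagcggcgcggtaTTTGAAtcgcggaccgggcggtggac
Cdk1: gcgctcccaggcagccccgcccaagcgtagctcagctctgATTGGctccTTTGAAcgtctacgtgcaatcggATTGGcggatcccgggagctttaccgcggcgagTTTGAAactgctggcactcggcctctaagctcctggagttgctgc
Ube2c: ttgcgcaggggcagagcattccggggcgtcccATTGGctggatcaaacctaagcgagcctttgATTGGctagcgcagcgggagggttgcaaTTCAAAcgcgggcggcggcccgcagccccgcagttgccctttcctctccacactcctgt
Cdc20: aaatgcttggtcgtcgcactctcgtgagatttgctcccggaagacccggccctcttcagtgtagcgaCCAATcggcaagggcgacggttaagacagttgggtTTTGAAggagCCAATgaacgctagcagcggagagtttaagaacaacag
Hmmr: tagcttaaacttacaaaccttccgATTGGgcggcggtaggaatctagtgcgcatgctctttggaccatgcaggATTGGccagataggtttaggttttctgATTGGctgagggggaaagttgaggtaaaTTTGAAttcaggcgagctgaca
Top2a: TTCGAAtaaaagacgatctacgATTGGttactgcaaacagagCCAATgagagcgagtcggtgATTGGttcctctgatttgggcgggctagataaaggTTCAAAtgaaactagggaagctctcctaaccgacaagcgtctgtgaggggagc
Kif11: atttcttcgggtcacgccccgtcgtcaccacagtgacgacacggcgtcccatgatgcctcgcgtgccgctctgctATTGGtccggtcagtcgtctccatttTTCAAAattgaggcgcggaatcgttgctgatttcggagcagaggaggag
Ccnb1: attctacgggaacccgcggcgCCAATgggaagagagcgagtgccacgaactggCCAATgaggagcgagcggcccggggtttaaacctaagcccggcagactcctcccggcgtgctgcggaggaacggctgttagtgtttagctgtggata

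These stretches lie at chr9:70421525-70421674 on the minus strand (Ccnb2), chr10:69352883-69353032 on the minus strand (Cdk1), chr2:164769809-164769958 on the plus strand (Ube2c) and chr4:118437314-118437463 on the minus strand (Cdc20). The others lie at chr11:40733408-40733557 on the minus strand (Hmmr), chr11:99024160-99024309 on the minus strand (Top2a), chr19:37376262-37376411 on the plus strand (Kif11) and chr13:100786457-100786606 on the minus strand (Ccnb1). Each spans the upstream flank and the first exon's start of its gene. The CHR letters were present in 24 of 28 windows (85.7%), against 19.2% of all 32851 windows in the table. CCAAT was present in 25 (89.3%), against 37.4% of all windows, and both elements in 23 (82.1%), against 7.52%. Paired CCAAT boxes whose starts lie 31 to 35 bases apart were found in 9 windows (32.1%), against 1.35% of all windows. Ccnb2, Cdk1, Ube2c and Ccnb1 above have such a pair. The spacing limits have no stated basis outside these data, so the shares with a pair are for scale and are no test. The E2F-like letters TTTCCCGC and TTTGGCGC, searched on both strands, were in none of the 28 windows, against 1.07% and 0.514% of all windows.

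The CHR matches lay close to the start site. Of 33 matches in the members' windows, 69.7% began between base -40 and base 45, where the first transcribed base is 1 and the base before it -1. The same stretch held 22.3% of the 7260 matches over all windows. The limits of this stretch have no stated basis outside these data, so both percentages are for scale and are no test. The Prc1 match was counted in both of its overlapping windows, at bases -30 and -5. In Ccnb2 a match began at base 5 and in Hmmr at base 9, and each stood downstream of its row of CCAAT boxes. Birc5, Ccnb1, Cenpe and Nusap1 had no CHR letters in the window, and Birc5, Kif2c and Nusap1 no CCAAT. A match describes the letters only.

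**Figure D1:**
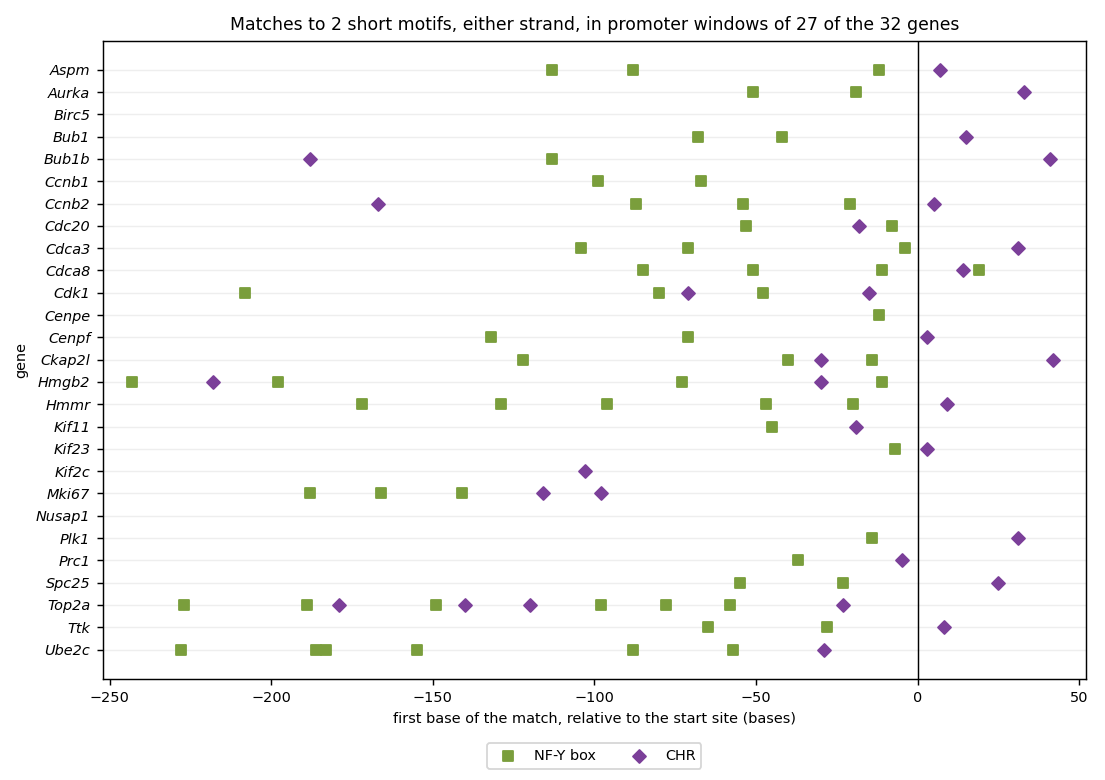
Matches to CHR (diamonds) and to the CCAAT letters bound by NF-Y (squares, named NF-Y box) in the promoter windows of 27 genes, by the first base of each match relative to the start site (x axis, bases); 1 row per gene, with 1 of the 2 Prc1 windows drawn. Diamonds gather around the start site, where 69.7% of all CHR matches in the members' windows fall between -40 and 45, and squares lie mostly upstream of them.

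Cells were assigned by UMIs of a few lineage genes, here called gates. CD8 T cells had at least 2 UMIs of Cd3e, Cd3g and Trac together and at least 2 of Cd8a and Cd8b1. Regulatory T cells had the same T cell UMIs and at least 1 UMI of Foxp3, macrophages at least 20 of C1qa, C1qb and C1qc, and tumour-like cells at least 10 of Rhox5, Tm4sf1 and Sdc2. A barcode that passed more than 1 gate was kept out of all 4. The CD8 T gate held 1012 WT and 701 Ifnar1-SA cells, the regulatory T gate 344 and 504, the macrophage gate 1404 and 1963 and the tumour-like gate 174 and 190. Library depth was 55497066 and 62732220 UMIs, and 7 kept barcodes occurred in both libraries.

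Markers outside the gate rules mostly fitted the T cell and macrophage gates. The T cell genes Cd3d, Cd2, Cd247, Lck and Trbc2 summed to 2775 (WT) and 3078 (Ifnar1-SA) counts per 1000000 UMIs (CPM) in the CD8 T gate, and to 86.5 and 155 CPM in macrophages. Nkg7 stood at 2281 and 2516 CPM in the CD8 T gate and at 266 and 564 CPM in the regulatory T gate. Il2ra, Ikzf2, Ctla4 and Tnfrsf18 were higher in the regulatory T gate in both libraries. Gzmb, listed as a CD8 T marker, was also higher there, at 1287 and 2154 CPM against 1090 and 1371 CPM in the CD8 T gate. Ptprc, the pan-leukocyte gene CD45, stood at 988 and 1111 CPM in the CD8 T gate, and at 2.41 and 2.25 CPM in the tumour-like gate. The tumour-like gate had no UMI of the epithelial genes Epcam and Krt18 in either library, while the fibroblast-associated gene Dcn stood at 690.0 and 504 CPM, so its name rests on the rule and not on epithelial markers. The 6 macrophage markers summed to 331 CPM (WT) and 1051 CPM (Ifnar1-SA) within the CD8 T gate, to 455 and 1391 CPM within the regulatory T gate, and to 35365 and 30669.7 CPM in macrophages. All 6 were detected in both T cell gates of both libraries. The Ifnar1-SA library also held cells with transcripts of Y-linked genes and none of Xist, 134 in the CD8 T gate and 215 in the macrophage gate, where WT held 1 and 0, so the Ifnar1-SA library mixes cells of both sexes.

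Summed over the 32 genes, the transcripts were most abundant in regulatory T cells and least in macrophages in both libraries. The sum was 4702 CPM (WT) and 3247 CPM (Ifnar1-SA) in regulatory T cells, 3908 CPM (WT) and 2447 CPM (Ifnar1-SA) in CD8 T cells and 2688 CPM (WT) and 1886 CPM (Ifnar1-SA) in tumour-like cells. In macrophages it was 1270.0 CPM (WT) and 1269 CPM (Ifnar1-SA). Hmgb2, a chromatin-bending protein that is also made outside mitosis, gave 45.7% and 48.04% of these UMIs in CD8 T cells but 24.1% and 24.7% in tumour-like cells. Without it the sum in WT was 2396 CPM in regulatory T cells, 2123 CPM in CD8 T cells, 2040.4 CPM in tumour-like cells and 745 CPM in macrophages. In Ifnar1-SA it was 1707 CPM in regulatory T cells, 1420.0 CPM in tumour-like cells, 1271 CPM in CD8 T cells and 753 CPM in macrophages. Without Hmgb2, tumour-like cells thus stood above CD8 T cells in Ifnar1-SA. Fewer dividing cells and less of each transcript per dividing cell cannot be told apart in these sums.

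**Figure D2:**
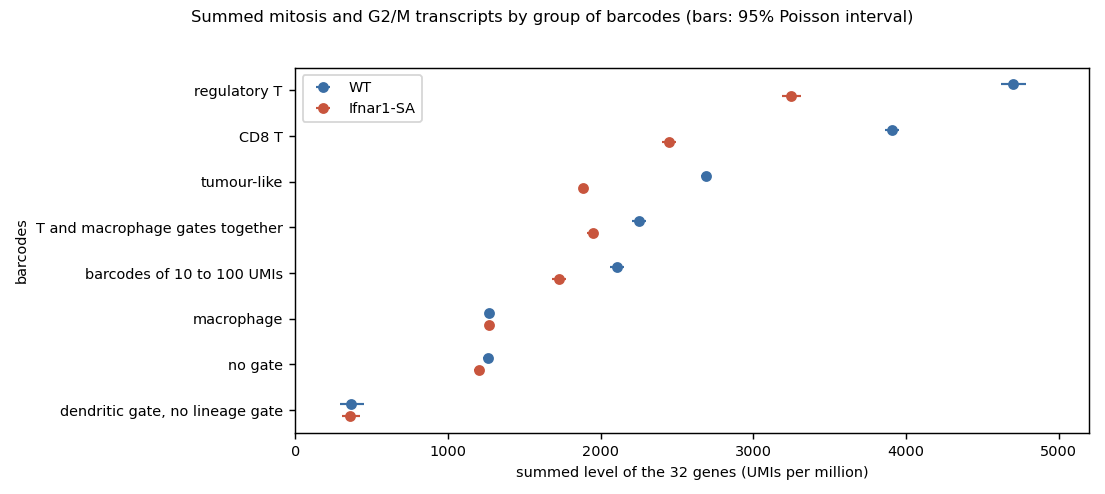
Summed level of the 32 genes (x axis, CPM) in groups of barcodes (y axis), 1 point per library with its 95% Poisson interval. Regulatory T, CD8 T and tumour-like cells stand higher in WT than in Ifnar1-SA, the macrophage points coincide at 1270.0 and 1269, and cells of the Ccr7, Fscn1 and Ccl22 gate outside every lineage gate are lowest.

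Gene by gene, all 32 were lowest in macrophages in WT (background 34.9% of all genes with at least 30 UMIs in the 4 gates), and 24 were in Ifnar1-SA (background 30.4%). The highest level was in regulatory T cells for 14 genes in WT (background 24.4%) and 17 in Ifnar1-SA (background 22.8%). It was in tumour-like cells for 14 in WT (background 41.3%) and 13 in Ifnar1-SA (background 43.5%), and in CD8 T cells for 4 in WT (background 15.4%) and 2 in Ifnar1-SA (background 14.4%). Against macrophages, 18 of 32 genes were at least 2-fold higher in regulatory T cells in both libraries (background 15.7% of all genes tested), 12 in tumour-like cells (background 27%) and 7 in CD8 T cells (background 14.4%). No gene was 2-fold lower than in macrophages in both libraries (backgrounds 15.4% for regulatory T, 17.5% for tumour-like and 18.3% for CD8 T cells). Top2a, the enzyme that untangles sister chromatids, stood at 308 CPM (WT) and 226 CPM (Ifnar1-SA) in regulatory T cells and at 84.3 CPM (WT) and 76.5 CPM (Ifnar1-SA) in macrophages. Between CD8 and regulatory T cells none of the 32 differed by 2-fold in both libraries in either direction (background 3.45% higher and 5.35% lower).

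Between tumour-like and T cells, 2-fold differences were no more frequent among the 32 genes than among all genes tested. Aurka, the centrosome kinase that matures spindle poles, was the 1 gene at least 2-fold higher in tumour-like than in CD8 T cells in both libraries (background 26.3%), with 25.6 CPM (WT) and 15.5 CPM (Ifnar1-SA) against 12.2 CPM (WT) and 5.75 CPM (Ifnar1-SA). Over regulatory T cells its log2 ratio was 0.23 in WT and 0.66 in Ifnar1-SA, under 2-fold in both. Hmgb2 and Nusap1, which binds and bundles spindle microtubules, were at least 2-fold lower in tumour-like than in CD8 T cells (background 14.4%). Nusap1 stood at 49.3 CPM (WT) and 29.7 CPM (Ifnar1-SA) in tumour-like cells and at 109 CPM (WT) and 60.1 CPM (Ifnar1-SA) in CD8 T cells. Against regulatory T cells the tumour-like cells were 2-fold lower in both libraries for 4 genes (background 15.3%), namely Mki67, Nusap1, Hmgb2 and Esco2, and higher for none (background 24.3%).

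The order of the gates for single genes was often not resolved beyond counting error. Cdk1, the mitotic kinase, ran from tumour-like through regulatory T and CD8 T cells to macrophages in both libraries. In WT its levels in that order were 163, 145, 125 and 51.8 CPM, and in Ifnar1-SA 110.4, 76.8, 68.7 and 49.9 CPM. The intervals of regulatory and CD8 T cells overlapped in both libraries, and those of tumour-like and regulatory T cells in WT. Mki67, which coats mitotic chromosomes and encodes the Ki-67 antigen, ran from regulatory T cells (161 CPM in WT, 138 in Ifnar1-SA) to CD8 T cells (99.02 CPM in WT, 57.5 in Ifnar1-SA) in both. Its next places were tumour-like cells and macrophages in WT, and those overlapped in Ifnar1-SA.

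**Figure D3:**
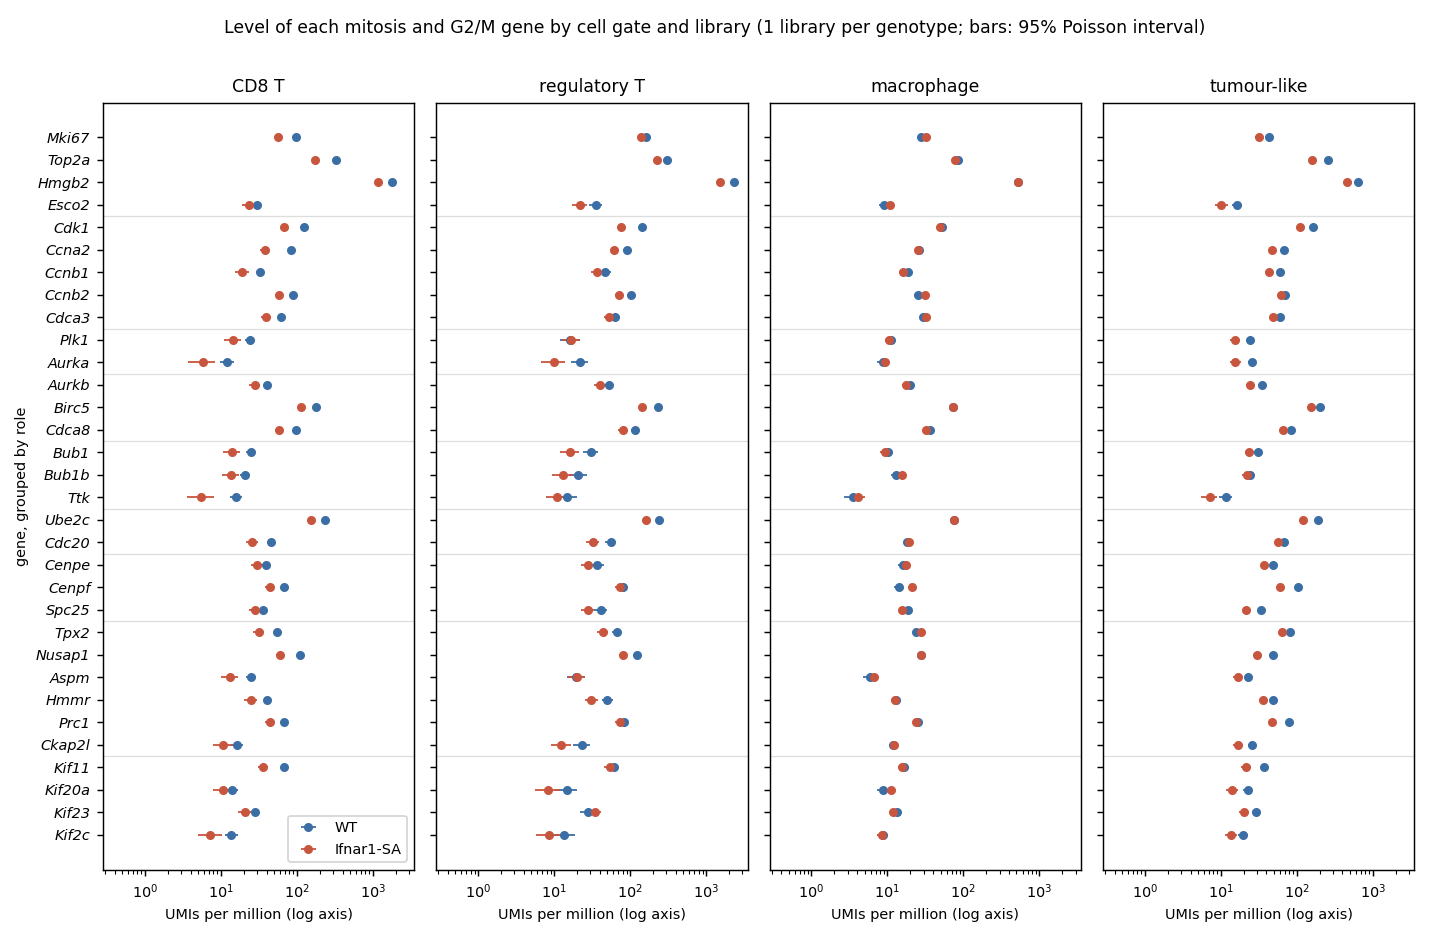
Level of each gene (x axis, CPM, log axis) in the 4 gates, in WT and Ifnar1-SA, with 95% Poisson intervals; genes are grouped by role on the y axis. In CD8 T and tumour-like cells every WT point lies to the right of the Ifnar1-SA point, and in macrophages the points largely coincide.

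Between the libraries, the sum was lower in Ifnar1-SA than in WT in 3 of the 4 gates. Its log2 ratio, Ifnar1-SA to WT, was -0.68 (-0.71 to -0.64) in CD8 T cells, -0.53 (-0.57 to -0.50) in regulatory T cells, -0.51 (-0.54 to -0.48) in tumour-like cells and -0.0013 (-0.027 to 0.024) in macrophages. With the Ifnar1-SA cells limited to those with Y-linked transcripts and no Xist, it was -0.32 in CD8 T cells and 0.34 in macrophages. The cells of all gates come from the same pair of libraries, so the gates are not independent replicates of the genotypes. Tumour-like cells, if they are of the inoculated line as the name has it, carry no host genotype of their own.

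In CD8 T cells all 32 genes were lower in Ifnar1-SA by at least 20%, where 15.8% of the 9819 genes with at least 30 UMIs over both libraries were, and 48.9% were lower at all. The 20% marks the inverse of a 25% rise, the limit used for higher values. The median log2 ratio was -0.74, against 0.007 over all genes tested, and the intervals of 31 genes lay wholly below 0 (background 12.7%). Among chromosome genes, Hmgb2 stood at 1785 CPM (WT) and 1176 CPM (Ifnar1-SA), a log2 ratio of -0.60 (-0.65 to -0.56), and Top2a at 324 CPM (WT) and 174 CPM (Ifnar1-SA), -0.89 (-1.01 to -0.78). Of the cyclins and their kinase, Cdk1 had a ratio of -0.86 (-1.05 to -0.68) and Ccna2, the cyclin of S phase and G2, -1.14 (-1.39 to -0.90), with 84.5 CPM (WT) and 38.2 CPM (Ifnar1-SA). Every gene of this role group was lower, from -1.14 to -0.60.

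The lowest ratio in CD8 T cells belonged to Ttk, the kinase Mps1 that starts the spindle checkpoint, with 126 and 25 UMIs and -1.53 (-2.21 to -0.90). Bub1b, the checkpoint protein BubR1, was at -0.61 (-1.05 to -0.18). Aurka had 96 and 26 UMIs and a ratio of -1.08 (-1.77 to -0.44), and Plk1, the polo kinase that acts from mitotic entry to exit, -0.76 (-1.19 to -0.35). Birc5, or survivin, a subunit of the chromosomal passenger complex, stood at 181 CPM (WT) and 114 CPM (Ifnar1-SA). Ube2c, the ubiquitin-conjugating enzyme of the anaphase-promoting complex, stood at 233 CPM (WT) and 152 CPM (Ifnar1-SA), a ratio of -0.62 (-0.75 to -0.49). Thus the smallest and the largest differences both include genes of few UMIs. The ratio nearest 0 was that of Spc25, an Ndc80 complex subunit at kinetochores, at -0.36 (-0.67 to -0.056). Esco2, which acetylates cohesin in S phase, was at -0.36 (-0.71 to -0.027). Kif20a, a kinesin of the midzone, was at -0.39 (-0.91 to 0.11) and was the 1 gene whose interval reached 0.

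In regulatory T cells 29 of the 32 genes were lower in Ifnar1-SA (background 51.8%) and 24 by at least 20% (background 17.8%); none was higher by 25% (background 18%). The median log2 ratio was -0.55, against -0.015 over all genes. Aurka was lowest, with 60 and 33 UMIs and -1.15 (-1.81 to -0.52). Cdk1 stood at 145 CPM (WT) and 76.8 CPM (Ifnar1-SA), -0.92 (-1.15 to -0.69), and Bub1, the kinase that recruits checkpoint proteins to kinetochores, at 30.2 CPM (WT) and 16.1 CPM (Ifnar1-SA), -0.91 (-1.43 to -0.40). Birc5 was at -0.70 (-0.87 to -0.53), Hmgb2 at -0.58 (-0.64 to -0.53) and Ube2c at -0.55 (-0.72 to -0.39). Aurka, Cdk1 and Bub1 are named here for the lowest ratios in this gate, so their direction follows from that choice. Bub1b, the checkpoint gene with the most UMIs, was at -0.67 (-1.27 to -0.072). Birc5, Hmgb2 and Ube2c, also those with the most UMIs in their roles, were lower, but Plk1, that of the kinases, was not.

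The 3 genes not lower in regulatory T cells were Aspm, a spindle pole protein (19.7 CPM in WT, 19.9 in Ifnar1-SA), Plk1 (16.4 CPM in WT, 16.7 in Ifnar1-SA) and Kif23, a kinesin of the midzone that helps form the cleavage furrow (28.1 CPM in WT, 34.8 in Ifnar1-SA). Kif23 had the highest ratio of all in this gate, 0.31 (-0.12 to 0.75). Each had at most 117 UMIs in a library, and each interval included 0. Cenpf and Kif11, the motor that pushes spindle poles apart, had ratios of -0.16 (-0.42 to 0.11) and -0.17 (-0.49 to 0.14), and both intervals also included 0. The kinesins summed to a log2 ratio of -0.15 in regulatory T cells and -0.72 in CD8 T cells; whether the groups differ in this was not tested.

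In macrophages 16 genes were lower and 16 higher in Ifnar1-SA (background 35.5% lower). None was lower by 20% (background 8.11%) and 2 were higher by 25% (background 15.1%), Cenpf and Kif20a. Cenpf stood at 14.1 CPM (WT) and 20.9 CPM (Ifnar1-SA), 0.57 (0.35 to 0.80), and Kif20a at 8.66 CPM (WT) and 11.1 CPM (Ifnar1-SA), 0.36 (0.063 to 0.66). The median was -0.0031, against 0.074 over all genes. These values rested on 22281 and 28294 member UMIs, against 30862 and 11073 in the CD8 T gate. Next to these 2 genes came cyclin B2, Ccnb2, at 0.31 (0.13 to 0.48). At the other end stood Spc25 at -0.24 (-0.46 to -0.014), cyclin B1, Ccnb1, at -0.23 (-0.45 to -0.012) and Aurkb, the passenger complex kinase, at -0.20 (-0.41 to 0.015). Cyclins B1 and B2, partners of the same kinase, thus stood on opposite sides of 0, but both are named for extreme ratios in this gate. Their opposite signs follow from that choice. Of the 32 intervals, 6 lay above 0 (background 23.9%) and 3 below it (background 1079 of 11677 genes). Hmgb2 had a ratio of -0.026 (-0.065 to 0.014), Ube2c -0.008 (-0.11 to 0.097) and Birc5 0.008 (-0.098 to 0.11).

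In tumour-like cells all 32 genes were lower in Ifnar1-SA (background 41.9%), 28 of them by 20% or more (background 8.94%), and none was higher by 25% (background 10.8%). The median log2 ratio was -0.52, against 0.038 over all genes. Kif11 was lowest, at 37.2 CPM (WT) and 21.6 CPM (Ifnar1-SA), -0.79 (-1.04 to -0.54). Cenpf stood at 104 CPM (WT) and 61.1 CPM (Ifnar1-SA), -0.76 (-0.91 to -0.62), and Nusap1 had a ratio of -0.73 (-0.95 to -0.52). By role, the medians ran from -0.69 for the 2 kinases to -0.39 for the 3 checkpoint genes. The ratios nearest 0 were Cdc20, the activator of the anaphase-promoting complex, at -0.25 (-0.42 to -0.086), Ccnb2 at -0.17 (-0.33 to -0.01) and Bub1b at -0.15 (-0.43 to 0.12). Cdk1 stood at 163 CPM (WT) and 110.4 CPM (Ifnar1-SA), -0.56 (-0.68 to -0.45), Plk1 at -0.66 (-0.96 to -0.36) and Hmgb2 at -0.48 (-0.53 to -0.42). The 4 fibroblast markers, all detected in this gate, also summed lower in Ifnar1-SA, at 880.3 CPM (WT) and 599.9 CPM (Ifnar1-SA), with Col1a1, a collagen chain, at 116 and 21.1 CPM and Pdgfra, a growth factor receptor, at 71.7 and 71.6 CPM. Their part in the difference was not tested.

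**Figure D4:**
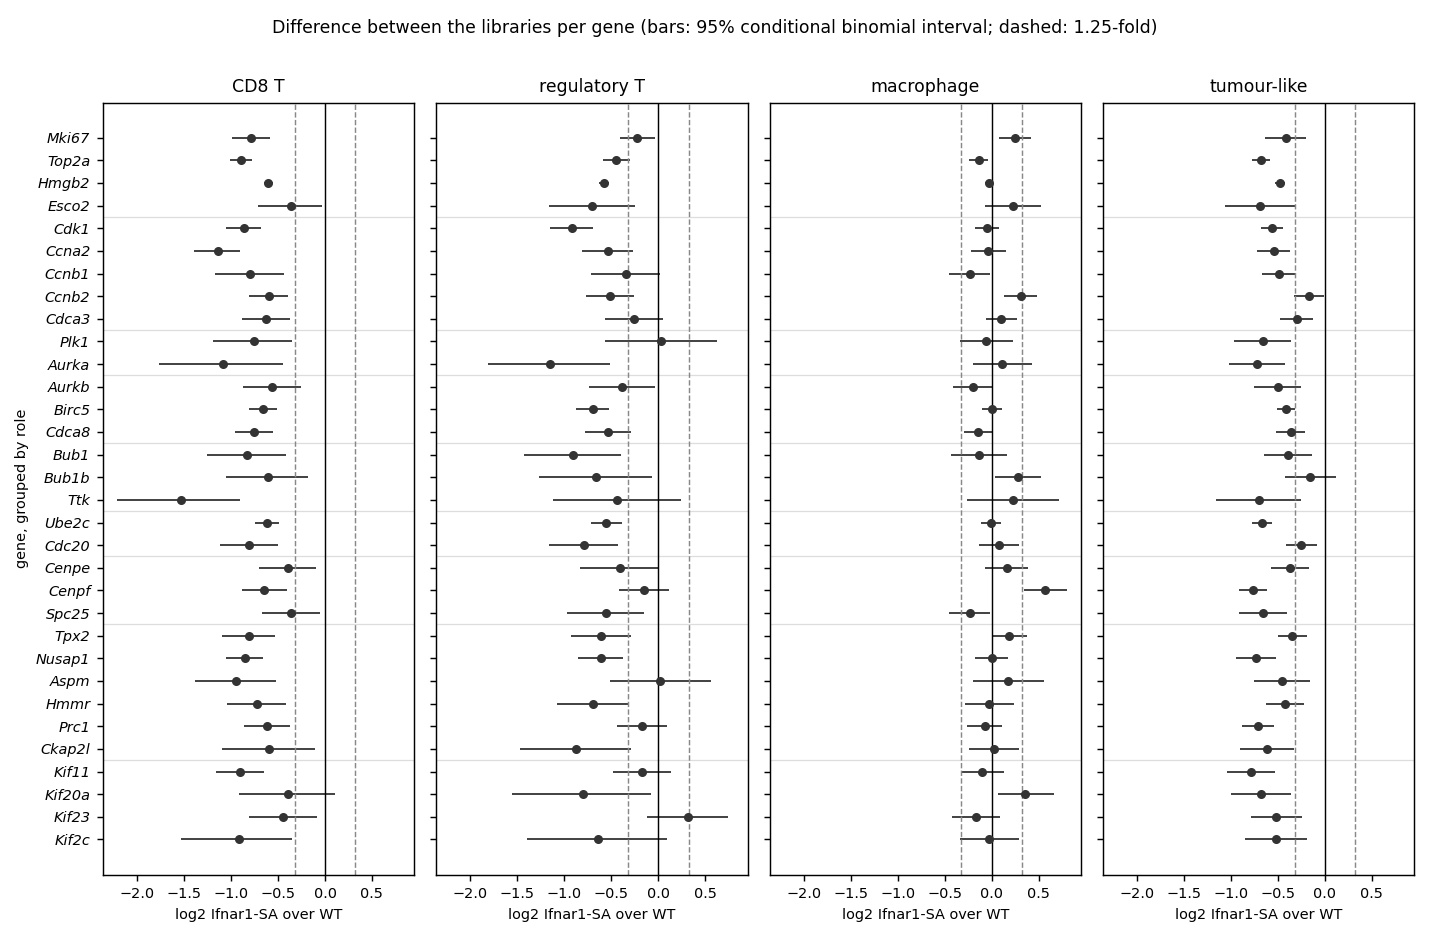
Log2 ratio, Ifnar1-SA to WT, of each gene (x axis) in the 4 gates, with 95% conditional binomial intervals; genes are grouped by role, the solid line marks 0 and the dashed lines 20% lower and 25% higher. All 32 points lie left of 0 in CD8 T and tumour-like cells, 29 in regulatory T cells and 16 in macrophages.

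Genes of the remaining roles are given side by side, as log2 ratios in CD8 T, regulatory T, macrophage and tumour-like cells in that order. Mki67 had -0.79, -0.22, 0.25 and -0.42. Prc1, which bundles microtubules of the midzone, had -0.61, -0.18, -0.073 and -0.71. Tpx2, which activates Aurora A on the spindle, had -0.81, -0.61, 0.19 and -0.35. In these 3 the macrophage ratio was again the highest, and the regulatory T ratio lay nearer 0 for Mki67 and Prc1 than for Tpx2. Hmmr, a hyaluronan receptor that also acts at spindle poles, had -0.72, -0.70, -0.025 and -0.43, and Ckap2l, a protein of the mitotic spindle, -0.59, -0.88, 0.029 and -0.62. Cdca8, or borealin of the passenger complex, had -0.76, -0.53, -0.14 and -0.37, and Cdca3, which targets the Wee1 kinase for destruction, -0.62, -0.26, 0.10 and -0.30. Kif2c, the kinesin MCAK that takes microtubules apart, had -0.92, -0.64, -0.026 and -0.52 and Cenpe, the kinetochore motor, -0.40, -0.41, 0.16 and -0.37. For each of these genes the macrophage point value was the highest of the 4. The counting intervals of all 9 genes lay below 0 in the CD8 T and tumour-like gates (background 8.52% in the latter). In the regulatory T gate those of Prc1, Cdca3, Kif2c and Cenpe included 0 and the other 5 lay below it (background 11.9%). In macrophages those of Mki67 and Tpx2 lay above 0 (background 23.9%) and the other 7 included it, and with 1 library per genotype these intervals cover counting error only.

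The level per cell was read after thinning each cell to 2000 UMIs, since depth differed between gates. Median depth was 6004 and 5086 UMIs in CD8 T cells and 49688 and 49324 in tumour-like cells, and thinning left out 86 and 66 CD8 T cells, 20 and 35 regulatory T cells, 25 and 41 macrophages and no tumour-like cell. Cells with at least 3 UMIs of the 32 genes made up 37.3% (34.1 to 40.5%) of WT and 27.6% (24.1 to 31.2%) of Ifnar1-SA CD8 T cells, a difference of -9.70 percentage points (-14.29 to -4.97). Taking just the Y-bearing cells of the Ifnar1-SA gate, the difference from WT was -0.967 percentage points. In regulatory T cells they made up 49.1% (43.5 to 54.7%) and 32.2% (27.98 to 36.6%), a difference of -16.88 percentage points (-23.66 to -9.94). In macrophages the shares were 18.4% (16.4 to 20.6%) and 18.5% (16.8 to 20.3%), differing by 0.05 percentage points (-2.66 to 2.71). Tumour-like cells had 39.7% (32.3 to 47.3%) and 33.2% (26.5 to 40.3%), and the difference of -6.50 percentage points (-16.23 to 3.36) had an interval that included 0. Before thinning the shares were 55.7% and 44.9% in CD8 T cells, 69.2% and 55.4% in regulatory T cells, 58.3% and 58.2% in macrophages and 93.7% and 91.6% in tumour-like cells.

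**Figure D5:**
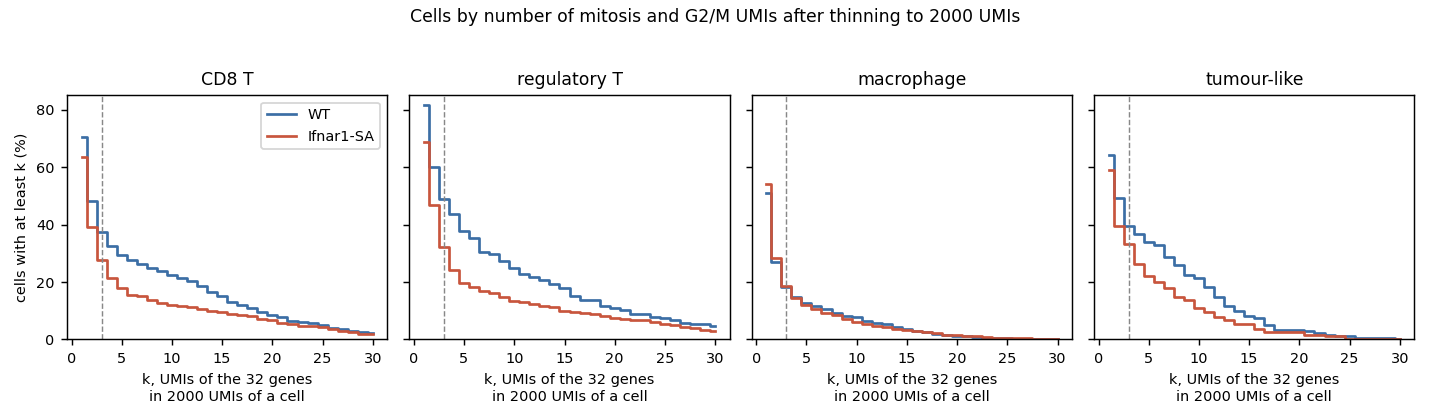
Share of cells (y axis, percent) with at least k UMIs of the 32 genes among 2000 UMIs (x axis), in WT and Ifnar1-SA; the dashed line marks 3 UMIs. The WT curve runs above the Ifnar1-SA curve in both T cell gates at 3 UMIs, and the macrophage curves meet there at 18.4% and 18.5%.

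The limit of 3 UMIs divides a continuous range and not cell types: 101 WT CD8 T cells had 2 UMIs and 44 had 3, against 74 and 40 in Ifnar1-SA. Within the cells past the limit, the mean count was 13.5 (WT) and 11.8 (Ifnar1-SA) member UMIs in CD8 T cells, 13.2 and 11.9 in regulatory T cells, 9.24 and 8.81 in macrophages and 10.5 and 8.43 in tumour-like cells. In CD8 T cells the share past the limit in Ifnar1-SA was 0.740 times that in WT, and the mean within those cells 0.876 times. In regulatory T cells these ratios were 0.656 and 0.904, and in tumour-like cells 0.836 and 0.800. At this limit the share differed by more than the mean in both T cell gates, and in tumour-like cells both ratios were close. That split depends on the limit. Cells with 3 to 9 UMIs made up 14.9% (WT) and 15.6% (Ifnar1-SA) in CD8 T, 24.1% and 18.8% in regulatory T and 18.4% and 22.1% in tumour-like cells. Cells with 10 or more made up 22.4% and 12.0%, 25% and 13.4%, and 21.3% and 11.1%, in the same order. With a limit of 5 UMIs the tumour-like shares differed by -11.8 percentage points. Without Hmgb2 the shares were 26.6% and 15.1% in CD8 T cells and 30.2% and 16.6% in regulatory T cells. They were 12.98% and 12.1% in macrophages and 35.6% and 26.3% in tumour-like cells.

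The genes other than Hmgb2 were seen more often in cells with others of the list than in cells without, though some in few cells of either kind. Among WT CD8 T cells with no UMI of the other 31 genes after thinning, a given gene other than Hmgb2 was seen in at most 6.19% (Top2a). Among cells with at least 3 UMIs of the other 31 it was seen in 4.06% (Aurka) to 58.4% (Top2a). In WT macrophages these values were at most 2.46% (Cdk1), and 2.76% (Ttk) to 40.1% (Birc5). Hmgb2 was seen in 47.2% of WT and 42.2% of Ifnar1-SA CD8 T cells with no other member, and in 98.4% and 95.8% of those with at least 3. It is thus the 1 member that is common outside cells with the rest of the programme in this gate. Of the WT CD8 T cells with at least 3 member UMIs, 73.3% also had at least 3 UMIs of the 27 S phase genes, against 72% in Ifnar1-SA. In macrophages this was 52.4% in both libraries. Cells past the limit were deeper before thinning, with medians of 10166 UMIs against 5215 for the rest in WT CD8 T cells and 7207 against 5077 in Ifnar1-SA.

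Free RNA and cells that should not divide gave the background. Barcodes of 10 to 100 UMIs, which hold mostly free RNA, carried 2107 CPM (WT) and 1726 CPM (Ifnar1-SA) of the 32 genes, so the free RNA was itself lower in Ifnar1-SA, and above the macrophage sum in both. Cells with at least 5 UMIs of Ccr7, Fscn1 and Ccl22, which mark mature dendritic cells, and outside the 4 gates carried 364 CPM (WT) and 361 CPM (Ifnar1-SA). Of 31 and 39 such cells, 27 and 37 reached 2000 UMIs. Of these, 7.41% (0.910 to 24.3%) and 0% (0 to 9.49%) had at least 3 member UMIs. The shares in all 4 gates were above these, but the WT macrophage share lay inside the wide WT interval. Median depth was 11718 and 10825 UMIs in macrophages, and 7325 and 10548 in the dendritic cells below the limit. How much of any gate's level was free RNA was not tested. This set of dendritic cells was restricted to those outside the gates after the data were seen, because 82 of 113 WT and 93 of 132 Ifnar1-SA cells of the wider set were tumour-like.

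The 32 genes were also read apart in cells with Xist and no Y-linked transcript and in cells with a Y-linked transcript and no Xist. Among CD8 T cells of the Ifnar1-SA library, the Xist-bearing cells carried 2325 CPM of the 32 genes, and 24.5% (20.5 to 28.8%) of them were past the limit. The Y-bearing cells carried 3125 CPM, with 36.3% (27.8 to 45.4%) past the limit, at median depths of 5661 and 4176 UMIs. Xist-bearing WT cells carried 3943 CPM, and the log2 ratio between the Xist-bearing cells of both libraries was -0.76. Against all WT CD8 T cells, at 3908 CPM, that of the Y-bearing Ifnar1-SA cells was -0.32. In macrophages the Xist-bearing and Y-bearing Ifnar1-SA cells carried 1166 and 1603 CPM, at median depths of 12382 and 6279 UMIs. The ratio was -0.098 against Xist-bearing WT cells, at 1248 CPM, for the former and 0.34 against all WT macrophages for the latter. The split left out 136 Ifnar1-SA macrophages with both kinds of transcript (1835 CPM) and 287 with neither (1319 CPM), so it does not divide the whole gate by sex. In the regulatory T gate the Xist-bearing Ifnar1-SA cells carried 3284 CPM, with 30.4% (26.01 to 35.04%) past the limit, and a ratio of -0.48 to Xist-bearing WT cells. Its 24 Y-bearing cells carried 4334 CPM, and 65% (40.8 to 84.6%) of the 20 that reached 2000 UMIs were past the limit. All WT cells of this gate carried 4702 CPM, with 49.1% past the limit. Both kinds of cell come from the library labelled Ifnar1-SA, where sex and animal cannot be told apart, and their part in the differences between libraries was not tested.

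Macrophage RNA in the T cell gates differed between the libraries, as given above. T cells with at most 2 C1q UMIs, a limit chosen after seeing the data, were also read apart. They made up 954 of 1012 WT and 642 of 701 Ifnar1-SA CD8 T cells. In the regulatory T gate they were 320 of 344 and 446 of 504. The ratio of the sum was -0.70 in CD8 and -0.56 in regulatory T cells. The shares past the member UMI limit differed by -10.2 and -15.9 percentage points. These values lay close to those over all cells of the gates, most of which were kept. Macrophage RNA left in the kept cells was not measured, so its part in the differences was not tested.

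Other cell cycle genes were counted in the same way, as at least 20% lower or 25% higher. Of 40 further G2/M genes, such as Ndc80, Cks1b and Stmn1, CD8 T cells had 30 lower and 0 higher of 40, regulatory T cells 24 lower and 2 higher of 40, macrophages 1 lower and 2 higher of 40 and tumour-like cells 25 lower and 0 higher of 40. The backgrounds are those given for each gate above, with 16.8% higher in CD8 T cells. Of the 27 S phase genes, which copy DNA and supply nucleotides, CD8 T cells had 22 lower and 0 higher of 27 and regulatory T cells 20 lower and 1 higher of 27. Macrophages had 0 lower and 0 higher of 27 and tumour-like cells 2 lower and 0 higher of 27. The S phase median log2 ratio was -0.43 in CD8 T, -0.48 in regulatory T, -0.049 in macrophage and -0.08 in tumour-like cells. In the tumour-like gate, then, the mitotic genes had a median of -0.52 and the S phase genes -0.08, while in both T cell gates both lists were lower; this contrast was not tested.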

How the data were processed

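Tumour-infiltrating cells of 1 WT and 1 Ifnar1-SA library were measured by 10x single-cell RNA sequencing. The deposited values are raw UMI counts for each gene in each barcode. The authors ran Cell Ranger 4, per the file headers, on build mm10, per the submitters' processing notes, with alignment settings and annotation release not given in the sources used here. No barcode had been filtered out. Barcodes were kept from 1000 UMIs and 500 genes up, with mitochondrial UMIs of 10% or less, leaving 4058 in WT and 5001 in Ifnar1-SA.

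UMIs were summed per gate and library and scaled to a total of 1000000 (CPM). Ratios have exact conditional binomial intervals, levels exact Poisson, shares Clopper-Pearson and share differences Newcombe intervals. Genes with at least 30 UMIs over both libraries in a gate were counted as lower at 20% below WT and as higher at 25% above it. No doublet caller was run: barcodes passing more than 1 gate (239 in WT, 398 in Ifnar1-SA) were left out, and doublets within a lineage remain. Thinning used the random seed 7. Python 3.11.15, numpy 2.4.6, scipy 1.17.1 and pandas 2.3.3 were used, and the ratio code was tested on simulated data. Gene positions follow GENCODE on mm10 and promoters RefSeq on GRCm38.p6.

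The members and lists were chosen with earlier results of these data known. Named genes were the member with the most UMIs in each role and the 3 lowest and 3 highest ratios in each gate; Top2a, Mki67 and the regulators singled out were added after their values were seen. Alternatives changed the filters, gates, depth and genes.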

Additional observations from a re-analysis of the deposited data

Results flagged for a closer look

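Cenpf had intervals on opposite sides of 0 in different gates. Its log2 ratio, Ifnar1-SA to WT, was -0.64 (-0.89 to -0.41) in CD8 T cells and -0.76 (-0.91 to -0.62) in tumour-like cells, but 0.57 (0.35 to 0.80) in macrophages. Kif20a did the same, with -0.81 (-1.56 to -0.074) in regulatory T cells, -0.68 (-0.998 to -0.36) in tumour-like cells and 0.36 (0.063 to 0.66) in macrophages. With 1 library per genotype the difference between gates was not tested for either gene.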

How the results depend on the processing

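No paired analysis was possible because each genotype has 1 library and the labels give no shared replicate. In CD8 T, regulatory T and tumour-like cells the summed level and the share stayed lower in Ifnar1-SA under every alternative that was run; in macrophages both took either sign. The counts of members lower by 20% ranged from 28 to 32 in CD8 T cells, from 20 to 24 in regulatory T cells and from 21 to 28 in tumour-like cells; in macrophages the count was 0 except for Xist-bearing cells, with 2.

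The log2 ratio of the summed level moved by more than its counting interval as follows, and the cause was not tested. In CD8 T cells it was -0.60 with at most 5% mitochondrial UMIs, -0.76 in Xist-bearing cells, -0.32 for Y-bearing Ifnar1-SA cells, -0.74 without the 5 cells richest in member UMIs per library, -0.63 with doubled gates, -0.54 as a mean over cells and -0.74 without Hmgb2. In regulatory T cells it was -0.48 in Xist-bearing cells, -0.57 without the 5 richest cells, -0.70 without the deepest 5% of cells, -0.49 with doubled gates, -0.70 as a mean over cells and -0.49 without Hmgb2. In macrophages it was 0.051 at 5% mitochondrial UMIs, -0.098 in Xist-bearing cells, 0.34 in Y-bearing ones, -0.15 without the deepest 5%, 0.046 with doubled gates and -0.033 as a mean over cells. In tumour-like cells it was -0.43 when cells of several gates were kept, -0.40 at 5% mitochondrial UMIs, -0.60 without the 5 richest cells, -0.48 without the deepest 5%, -0.45 with doubled gates and -0.48 as a mean over cells. The share past 3 UMIs differed by -0.967 percentage points in CD8 T cells and 6.34 in macrophages when Y-bearing Ifnar1-SA cells were set against all WT cells.

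Splits by a marker UMI were chosen after seeing the data. In CD8 T cells the ratio was -1.04 with an Xcl1 UMI and -0.49 without, -0.57 with a Gzmb UMI and -0.82 without. It was -0.39 in regulatory T cells without Gzmb, -0.047 in macrophages with Ly6c2 and 0.097 without. Y-bearing regulatory T cells and both sex-linked splits of tumour-like cells held fewer than 50 cells and were not run.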

Other observations

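Of the regulators upstream of the mitotic genes, CD8 T cells had 9 lower and 3 higher of 19, at 20% lower or 25% higher, where 15.8% of all genes tested were lower and 16.8% higher, so the count of higher regulators was near the background. Foxm1 and Mybl2, which switch on G2 genes, had log2 ratios of -0.48 (-0.998 to 0.014) and -0.58 (-1.14 to -0.036). Cdk6, a kinase of G1, was at -1.13 (-1.28 to -0.98) with 1843 and 483 UMIs, while its partner Ccnd2, cyclin D2, stood on the other side at 0.70 (0.57 to 0.83), and Ccnd3 at 0.14 (0.00011 to 0.29). Ccnd1, with 16 and 54 UMIs, was at 2.56 (1.73 to 3.46); it stood at 178 and 177 CPM in macrophages against 2.03 and 11.9 in CD8 T cells, where macrophage markers were also higher in Ifnar1-SA, and their part in this value was not tested. In regulatory T cells Cdk6 was at -0.11 (-0.27 to 0.047) and Ccnd2 at 0.30 (0.18 to 0.43). Of the inhibitors of these kinases and related genes that restrain division, CD8 T cells had 1 lower and 1 higher of 8, Cdkn2c at -0.50 (-0.89 to -0.13) and Btg2 at 0.44 (0.36 to 0.53), a share near the background in both directions. Cdkn1a, the p53 target p21, was at 0.024 (-0.21 to 0.25) and Cdkn1b, p27, at 0.074 (-0.064 to 0.21). In tumour-like cells Foxm1 was at -0.69 (-1.03 to -0.35) and Cdkn1a at 0.41 (0.033 to 0.78). Cdkn1a does not stand for the 10 inhibitors there, of which 5 were lower and 5 higher, with log2 ratios down to -1.15. Of their intervals, 4 lay below 0 (background 8.52%) and 2 above it (background 1434 of 10966 genes). Regulators were 8 lower and 2 higher of 19 in regulatory T cells (background 17.8% and 18%), 0 lower and 2 higher of 19 in macrophages (background 8.11% and 15.1%) and 3 lower and 0 higher of 19 in tumour-like cells (background 8.94% and 10.8%). In the same order inhibitors were 1 lower and 0 higher of 8, 0 lower and 2 higher of 9 and 2 lower and 2 higher of 10.

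The share of cells past 3 member UMIs was also read within gates split by a marker. Of CD8 T cells with a UMI of Xcl1, a chemokine of early and stem-like effector cells, they made up 43.4% in WT and 23.4% in Ifnar1-SA, a difference of -20.02 percentage points (-28.83 to -10.83). Of those without Xcl1 they made up 35.7% in WT and 29.7% in Ifnar1-SA, a difference of -5.99 percentage points (-11.45 to -0.34). With Gzmb, the cytotoxic protease granzyme B, the share was 36.9% in WT and 32.9% in Ifnar1-SA. This difference of -3.92 percentage points (-10.46 to 2.78) had an interval that included 0. Without Gzmb the share was 37.7% in WT and 21.7% in Ifnar1-SA, a difference of -15.99 percentage points (-22.26 to -9.36). In macrophages with a UMI of Ly6c2, a gene of recently arrived monocytes, the share was 11.7% in WT and 11.7% in Ifnar1-SA, below the 20.6% in WT and 22.2% in Ifnar1-SA of those without. These splits were chosen after the data were seen, and no difference between the splits was tested.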
